A study of Mus musculus with 12 samples.

Results

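Interferon-stimulated genes were followed in mouse melanomas that had grown in animals treated with alisertib, navitoclax, both drugs or vehicle. The members were the rows of the deposited table whose gene symbol is on a list of 48 interferon-stimulated genes, with MHC and chemokine genes left out, and no measured value entered the rule. All 48 were found among the 50600 genes of the table. All 48 also passed the filter on low values, a normalised count of at least 10 in at least 3 libraries, which kept 16993 genes for testing.

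The tumours were grown from 50000 B16F10 cells, a transplantable melanoma line of C57Bl/6 origin, placed under the skin of C57Bl/6 mice labelled as wild in genotype. Mice were gavaged every day over 11 days with 25 mg/kg alisertib, an inhibitor of Aurora kinase A, with 100 mg/kg navitoclax, an inhibitor of BCL-2, BCL-xL and BCL-w, with both drugs at these doses (called the combination), or with vehicle. Each of the 4 groups has 3 RNA-seq libraries of whole tumour. Age is not in the labels used here, nor is it stated whether the libraries stem from different mice, so the spread between libraries may in part be technical.

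Interferons are secreted proteins that warn neighbouring cells of infection or of nucleic acid in the wrong compartment. Type I interferons bind IFNAR1 and IFNAR2 and act through JAK1 and TYK2 to activate a factor that contains STAT2 and IRF9 and binds interferon-stimulated response elements (ISRE) in promoters. Interferon gamma, made mainly by T and NK cells, binds IFNGR1 and IFNGR2 and acts through gamma-activated sites (GAS) in promoters and through IRF1. Most of the genes below respond to both kinds of interferon, while the guanylate-binding proteins and the immunity-related GTPases are known in the mouse as strong targets of interferon gamma.

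Library sizes were 26.8 to 36.7 M recovered reads (M, mega). The ribosomal loci Gm26917 and Gm42418 together accounted for 73.7% of combination 3 and 63.3% of vehicle 2, and for 13.8 to 35.4% of the other 10 libraries. Reads left for other genes numbered 7.08 M in combination 3, 9.86 M in vehicle 2 and 21.9 to 27.6 M in the others. In the column name of navitoclax 3 the tumour number is not that of the sample's title, while its library code and its treatment equal the label's. The pairing of that column with its sample rests on the library code. Melanocyte genes summed to between 438872 and 697704 normalised counts in all 12 libraries, so the labelled melanoma was seen in each. Because whole tumours were sequenced, more cells of a type and more RNA per cell cannot be told apart.

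Promoters show what the members have in common in sequence. RefSeq promoter windows of 300 bases (GRCm38.p6, 250 before to 50 after the start) were present for 37 members. The remaining 11 were Oas2, Mx1, Parp14, Usp18, Iigp1, Zbp1, Parp9, Ifi27l2a, Mx2, Rtp4 and Dhx58. The ISRE core was searched as TTTCNNTTTC on either strand (GAAANNGAAA on the other) and was found in 21 of the 37 windows (56.8%), against 3.99% of the 27025 genes with a window. The GAS was searched as TTCNNNGAA, which reads the same on both strands, and was found in 12 of 37 (32.4%) against 9.55% of genes. Both motifs were found in 9 of 37 (24.3%) against 0.614% of genes, with overlapping matches allowed. A match is a description of the letters and not a demonstration of binding. The windows of 4 members whose values are given below are shown because each stands for a role: Ifit3 for antiviral RNA-binding proteins at chr19:34583279-34583578 on the plus strand, Bst2 for tetherin at chr8:71537423-71537722 on the minus strand, Gbp2 for the guanylate-binding proteins at chr3:142620413-142620712 on the plus strand and Irgm1 for the immunity-related GTPases at chr11:48871371-48871670 on the minus strand. Capitals mark matches to the ISRE core.
Ifit3: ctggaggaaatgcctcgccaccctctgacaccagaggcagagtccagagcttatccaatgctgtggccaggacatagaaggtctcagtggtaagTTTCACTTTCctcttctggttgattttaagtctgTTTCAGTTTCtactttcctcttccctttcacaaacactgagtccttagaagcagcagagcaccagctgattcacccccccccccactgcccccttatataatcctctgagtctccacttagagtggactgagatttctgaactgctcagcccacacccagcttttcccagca
Bst2: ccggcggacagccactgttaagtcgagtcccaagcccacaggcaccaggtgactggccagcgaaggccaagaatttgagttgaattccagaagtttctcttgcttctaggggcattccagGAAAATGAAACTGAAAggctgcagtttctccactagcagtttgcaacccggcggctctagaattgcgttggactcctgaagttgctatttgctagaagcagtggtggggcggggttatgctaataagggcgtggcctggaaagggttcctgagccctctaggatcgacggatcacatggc
Gbp2: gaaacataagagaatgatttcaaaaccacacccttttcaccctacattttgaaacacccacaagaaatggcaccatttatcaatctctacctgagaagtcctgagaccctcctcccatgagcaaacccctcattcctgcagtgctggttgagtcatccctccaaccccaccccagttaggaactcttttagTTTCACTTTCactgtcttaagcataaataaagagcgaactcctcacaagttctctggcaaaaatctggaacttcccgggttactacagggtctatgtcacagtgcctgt
Irgm1: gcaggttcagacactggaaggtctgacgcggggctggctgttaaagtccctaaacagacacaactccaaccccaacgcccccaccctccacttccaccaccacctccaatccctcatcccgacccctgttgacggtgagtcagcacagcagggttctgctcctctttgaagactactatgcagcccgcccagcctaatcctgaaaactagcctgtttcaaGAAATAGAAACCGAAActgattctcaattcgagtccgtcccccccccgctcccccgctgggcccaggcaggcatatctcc

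With positions counted from the start, Ifit3 holds separate matches that begin at −156 and −122. In Bst2 the overlapping matches begin at −130 and −124, and a GAS match that begins at −136 overlaps them. Gbp2 has a match at −59 and Irgm1 overlapping matches at −30 and −24. By role, all 4 guanylate-binding proteins and 5 of the 6 immunity-related GTPases with a window held an ISRE core, as did both sensors with a window. So did 5 of 8 in the group of IFIT and OAS families and PKR, and 1 of 4 transcription factors (Stat2). The core was found in 3 of 6 antiviral effectors, 1 of 2 of the ISG15 system, 0 of 1 of the PARP group and 0 of 4 other induced proteins. In Ifih1, Ddx58 and Eif2ak2 the only ISRE match began after the start, at 33, 3 and 19. A GAS followed after 2 bases by an ISRE core, a spacing chosen after the matches had been seen, was found in 4 of the 6 GTPase windows, in 0 of the other members' windows and in 5 of all 27025 genes (0.0185%). In these 4 stretches of 21 bases, capitals mark both motifs, and the first base lies at −88, −81, −45 and −75 in the order shown.
Tgtp1: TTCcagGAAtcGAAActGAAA
Tgtp2: TTCcagGAAtcGAAAccGAAA
Igtp: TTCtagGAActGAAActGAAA
Irgm2: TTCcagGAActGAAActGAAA

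The members also share places in the genome. In GENCODE M21 (GRCm38), 23 of the 48 lie within 100000 bases of another member, in 9 clusters. The largest is Gbp5, Gbp7, Gbp3 and Gbp2 on chr3:142493978-142638008. Ifit2, Ifit3 and Ifit1 lie on chr19:34550694-34650009, Tgtp1, Tgtp2 and Ifi47 on chr11:48985327-49096974, and Parp14, Dtx3l and Parp9 on chr16:35832874-35972605. Some values are uncertain for this reason: Tgtp1 and Tgtp2 are near-identical copies, Irgm2 overlaps Igtp on the same strand, and Parp9 overlaps Dtx3l on the opposite strand, while the strand setting of the counting is not given in the sources used here. Mx2 is annotated as a polymorphic pseudogene and the other 47 members as protein coding.

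Levels per kilobase of exon differed widely between members in the vehicle tumours. Lgals3bp, a secreted glycoprotein that binds galectin-3, had 951 ± 227 normalised counts per kilobase and Bst2 had 853 ± 262 (SD, n = 3), and these neighbours differed by less than their spread. Ifi35 (154 ± 16.8), Ifit2 (151 ± 56.8), Irf1 (142 ± 12.7) and Rsad2 (119.6 ± 57.6) came next and also overlapped within their SDs. At the low end were Ifi44 (0.349 ± 0.360), Gbp5 (1.44 ± 0.487), Oas3 (1.97 ± 0.851) and Oas2 (2.62 ± 0.765).

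The members differed widely between tumours of the same treatment. Navitoclax 3 had the highest value of the 12 libraries in 46 of 48 members, where 4.73% of all tested genes have their highest value in that library. The exceptions were Ifit2, highest in navitoclax 1, and Ifi27l2a, highest in alisertib 2. Navitoclax 2 had the lowest value in 25 of 48 members, against 7.30% of all tested genes, and lay below every vehicle library in 27 of 48, against 23.7% of all tested genes. When navitoclax 3 was set aside, combination 2 was the highest of the other 11 libraries in 24 of 48 members, against 5.55% of all tested genes. These library patterns were noticed in the data and carry no test.

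**Figure D1:**
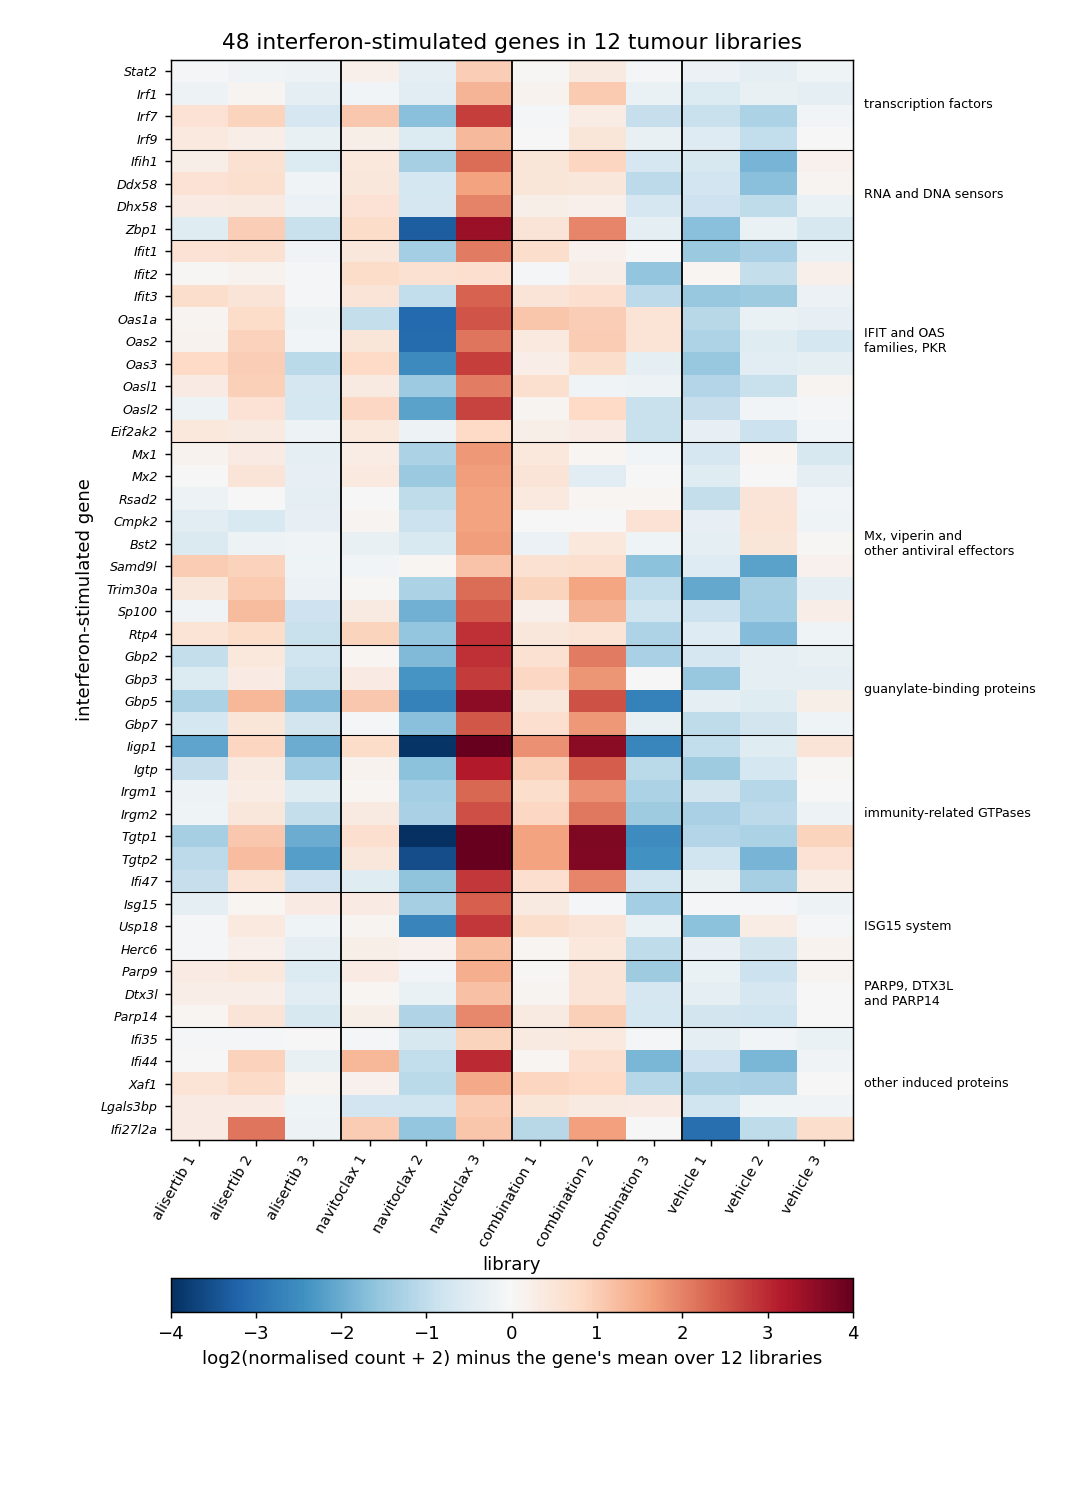
Heat map of the 48 members (rows, by role) in the 12 libraries (columns). Colour is log2(normalised count + 2) minus the gene's mean over the 12 libraries. The navitoclax 3 column is the reddest in 46 of 48 rows and navitoclax 2 is the bluest in 25, while combination 2 is red mainly in the guanylate-binding proteins and immunity-related GTPases.

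The median deviation of the members from their own means, on the log2(normalised count + 2) scale, was 2.19 in navitoclax 3, −1.33 in navitoclax 2 and 0.34 in navitoclax 1. It was 0.46, 0.67 and −0.74 in combination 1, 2 and 3, 0.01, 0.51 and −0.38 in alisertib 1, 2 and 3, and −0.81, −0.77 and −0.12 in vehicle 1, 2 and 3. Over all genes tested the same median stayed between −0.03 and 0.02 in each library. The SD within groups had a median of 1.10 over the members and 0.37 over all tested genes (log2). It was smallest for Stat2 (0.36) and largest for Tgtp1 (2.89), and 47 of 48 members lay above the median of all tested genes.

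None of the 48 members passed an adjusted p of 0.05 in any of the 8 contrasts fitted. The contrasts set every drug arm against vehicle, the combination against either drug alone, and 6 libraries given a drug against 6 without it, and tested the interaction of the drugs. Over all tested genes 0.871% passed with alisertib against vehicle, 0.0647% with navitoclax, 2.54% with the combination, 0% for the combination against alisertib, 1.19% for the combination against navitoclax, 0.00588% for the interaction, 4.50% for alisertib given or not and 0% for navitoclax given or not. At an unadjusted p under 0.05 the members numbered 0 with alisertib (13.0% of all tested genes), 2 with navitoclax (6.37%) and 0 with the combination (16.9%). In the other contrasts Ifit2 alone reached it, in the combination against navitoclax (18.1% of all tested genes) and in the interaction (8.53%), while 0 did for the combination against alisertib (3.51%), alisertib given or not (18.6%) or navitoclax given or not (3.94%). By edgeR on recovered reads, 0 members reached that level with alisertib (13.0% of all tested genes in the same fit), 16 with navitoclax (7.37%) and 1 with the combination (16.5%). By DESeq2 they numbered 2 with alisertib (15.4%), 27 with navitoclax (9.13%) and 2 with the combination (18.5%), again with 0 past the adjusted threshold in these arms by both tools.

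The 4 transcription factors transmit the interferon signal or amplify it. Irf1, a factor induced by interferon gamma, had normalised counts of 648, 805 and 569.9 in alisertib tumours, 688, 561 and 1936 in navitoclax tumours, 819, 1551 and 619 in combination tumours, and 508, 605 and 583 in vehicle tumours. The values of navitoclax 3 and combination 2 stood far above the rest, and the navitoclax and vehicle libraries overlapped. Stat2, a subunit of the factor that binds the ISRE, had 649, 602 and 574 in alisertib tumours, 768, 517 and 1326 in navitoclax tumours, 693, 855 and 644 in combination tumours, and 563, 512 and 597 in vehicle tumours. All combination libraries of Stat2 and Irf1 lay above all vehicle libraries, by narrow gaps. The differences of Irf1 from vehicle were 0.69 ± 0.43 in navitoclax and 0.71 ± 0.43 in combination tumours (log2 ± SE, limma adjusted p = 0.704 and 0.461). For the 4 factors the median log2 difference from vehicle was 0.43 in alisertib, 0.76 in navitoclax and 0.55 in combination tumours. Irf7, the amplifier of type I interferon production and the most variable of the 4, reached 632 in navitoclax 3 and 27.7 in navitoclax 2.

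The sensors detect foreign or misplaced nucleic acid. Ddx58, which encodes the RNA sensor RIG-I, had normalised counts of 463, 479 and 278 in alisertib tumours, 428, 189.8 and 944 in navitoclax tumours, 435, 424 and 148 in combination tumours, and 181, 95.6 and 336 in vehicle tumours. Ifih1, which encodes MDA5, a sensor of long double-stranded RNA, had 90.2, 118 and 52.4 in alisertib tumours, 103, 29.3 and 371 in navitoclax tumours, 109, 141 and 47.0 in combination tumours, and 48.9, 19.6 and 87.4 in vehicle tumours. Dhx58, which encodes LGP2, a helper of MDA5, had 95.3, 97.8 and 64.6 in alisertib tumours, 114, 47.4 and 307 in navitoclax tumours, 89.7, 88.6 and 47.0 in combination tumours, and 42.0, 36.8 and 63.5 in vehicle tumours. For each of these, navitoclax 3 was the highest and vehicle 2 the lowest library, and navitoclax 2 lay within the vehicle range. Dhx58 had the smallest p of all members against vehicle with navitoclax, with a log2 difference of 1.33 ± 0.55 (SE, 95% interval 0.11 to 2.55, limma adjusted p = 0.704). Ddx58 differed by 1.23 ± 0.62 (adjusted p = 0.704). The median of the 4 sensors was 0.86 in alisertib, 1.22 in navitoclax and 0.87 in combination tumours on the log2 scale. Zbp1, a sensor of nucleic acid in the Z form, ran from 1.58 in navitoclax 2 to 386 in navitoclax 3.

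The IFIT proteins bind foreign RNA, the OAS enzymes activate RNase L, and PKR stops translation when it meets double-stranded RNA. Ifit2 had normalised counts of 671, 719.9 and 617 in alisertib tumours, 1079, 998 and 1041 in navitoclax tumours, 620.3, 781 and 217 in combination tumours, and 684, 338 and 755 in vehicle tumours. It was the exception among the members, since all navitoclax libraries, between 998 and 1079, lay above every vehicle and every combination library. The combination was lower than navitoclax by 1.13 ± 0.42 (log2, SE, 95% interval of the difference −2.06 to −0.21, limma adjusted p = 0.203), and the difference was −0.58 without combination 3, its lowest library. Eif2ak2, which encodes PKR, had 793, 765 and 521 in alisertib tumours, 806, 516 and 1032 in navitoclax tumours, 699, 751 and 322 in combination tumours, and 478, 326 and 549 in vehicle tumours. The range of Eif2ak2 was narrow, and its navitoclax difference was 0.77 ± 0.36 (adjusted p = 0.704).

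Ifit3 had normalised counts of 379.6, 338 and 219 in alisertib tumours, 334, 118 and 1197 in navitoclax tumours, 334, 370.4 and 112 in combination tumours, and 79.9, 85.8 and 199 in vehicle tumours. All alisertib libraries lay above all vehicle libraries, while navitoclax and combination libraries overlapped the vehicle range. Ifit1 had 141, 144 and 84.2 in alisertib tumours, 129, 35.6 and 399 in navitoclax tumours, 155, 106 and 94.1 in combination tumours, and 32.0, 36.8 and 77.7 in vehicle tumours. Again the alisertib libraries, and here the combination libraries too, lay above every vehicle library. Against vehicle, Ifit3 differed by 1.69 ± 0.74 with navitoclax (adjusted p = 0.704), and Ifit1 by 1.37 ± 0.69 with alisertib (adjusted p = 0.434) and by 1.32 ± 0.69 with the combination (adjusted p = 0.369). Over the 9 members of this group the median was 0.86 in alisertib, 0.89 in navitoclax and 0.98 in combination tumours. Within the navitoclax group, Oas2 had 0.791 in library 2 and 102 in library 3, and Oas3 had 2.37 and 173.

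**Figure D2:**
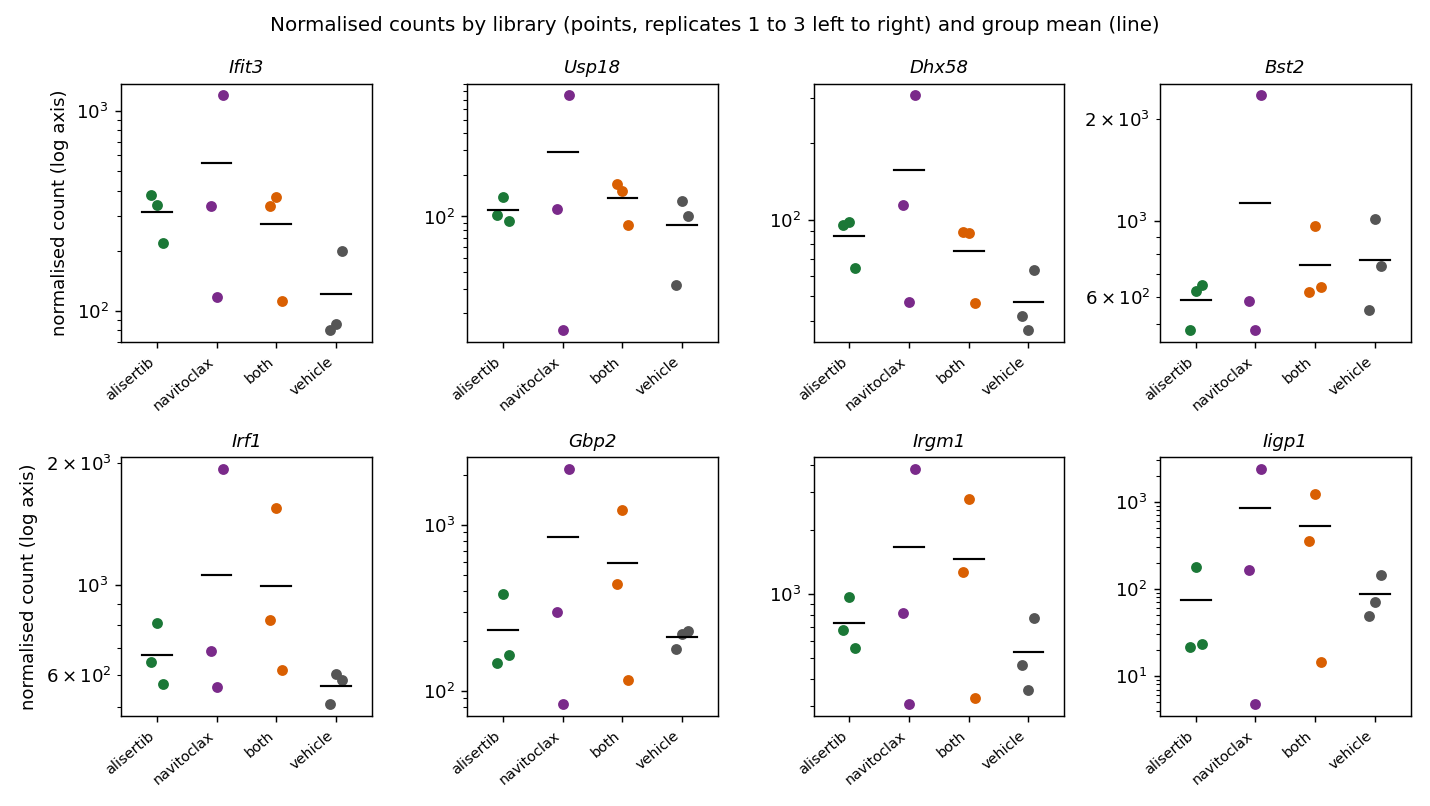
Normalised counts (log axis) of 8 members in each library, with a point per library in the order of replicates 1 to 3, a line at the group mean, and the combination written as both. In each panel the top point is navitoclax 3, and for Irf1, Gbp2, Irgm1 and Iigp1 combination 2 is the next highest.

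The other antiviral effectors hold virus at the membrane, block its nucleotides or restrict its replication. Bst2, or tetherin, which tethers budding virus and is well expressed in these tumours, had normalised counts of 482, 627 and 653 in alisertib tumours, 585, 479 and 2338 in navitoclax tumours, 622, 972 and 644 in combination tumours, and 549, 1019 and 742 in vehicle tumours. Navitoclax 3 stood alone at 2338, the other 11 libraries lay between 479 and 1019, and the difference of navitoclax from vehicle was 0.22 ± 0.49 (adjusted p = 0.861). Rsad2, or viperin, which makes a chain-terminating nucleotide, had 469, 548 and 425 in alisertib tumours, 540.0, 266 and 1675 in navitoclax tumours, 717, 576 and 579 in combination tumours, and 279, 777 and 499.6 in vehicle tumours. Its vehicle 2 value was the highest after navitoclax 3. Samd9l, a restrictor of translation and growth, had 939, 864 and 411 in alisertib tumours, 430.0, 482 and 1019 in navitoclax tumours, 705, 711 and 145 in combination tumours, and 319.7, 103 and 515 in vehicle tumours. The values of vehicle 2 and combination 3, the libraries rich in ribosomal RNA, were the lowest, and the part of that share in the difference was not tested. Samd9l had the smallest p with alisertib against vehicle, at 1.42 ± 0.70 (95% interval −0.12 to 2.97, adjusted p = 0.425), and 0.77 without vehicle 2.

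Trim30a, a mouse TRIM protein that dampens inflammatory signalling, had normalised counts of 139, 209 and 85.2 in alisertib tumours, 104, 41.1 and 485 in navitoclax tumours, 189, 306 and 50.7 in combination tumours, and 23.0, 39.2 and 78.6 in vehicle tumours. It had the smallest p with the combination against vehicle, 1.74 ± 0.86 (95% interval −0.16 to 3.64, adjusted p = 0.341), with combination 3 inside the vehicle range. All alisertib libraries of Trim30a lay above all vehicle libraries. For the 9 effectors the median difference was 0.44 in alisertib, 0.67 in navitoclax and 0.56 in combination tumours. Mx1 and Mx2, of a family of GTPases that trap viral particles, reached 213 and 184 in navitoclax 3 and 24.5 and 19.0 in navitoclax 2. RNA levels do not show whether these tumours made working Mx protein.

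The guanylate-binding proteins are GTPases that coat and rupture the vacuoles of intracellular pathogens. Gbp2 had normalised counts of 146, 386 and 165 in alisertib tumours, 299, 83.0 and 2168 in navitoclax tumours, 438, 1224 and 116 in combination tumours, and 179.8, 221 and 229 in vehicle tumours. Gbp7 had 116, 264 and 112 in alisertib tumours, 182, 58.5 and 1068 in navitoclax tumours, 305, 641 and 156 in combination tumours, and 92.9, 113 and 167 in vehicle tumours. For both, navitoclax 3 was highest, combination 2 next, and navitoclax 2 lowest of all. The log2 difference of Gbp2 from vehicle was 0.86 ± 1.05 in navitoclax tumours and 0.92 ± 1.05 in combination tumours (adjusted p = 0.753 and 0.737). The 95% intervals, −1.45 to 3.16 and −1.39 to 3.23, span both directions. Over the 4 genes the median was 0.17 in alisertib, 0.88 in navitoclax and 1.14 in combination tumours. Gbp5 was listed at 0 in navitoclax 2 and in combination 3 and reached 153 in navitoclax 3, where a count of 0 allows up to 2.37 normalised counts in navitoclax 2 and 10.9 in combination 3.

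The immunity-related GTPases act on the same vacuoles in mouse cells, and 7 were members. Irgm1, a regulator of the family, had normalised counts of 676, 964 and 561 in alisertib tumours, 819, 304 and 3845 in navitoclax tumours, 1266, 2798 and 326 in combination tumours, and 466, 355 and 775 in vehicle tumours. Iigp1, an effector of the family, had 21.3, 179.6 and 23.4 in alisertib tumours, 167, 4.74 and 2383 in navitoclax tumours, 354, 1235 and 14.5 in combination tumours, and 48.9, 71.1 and 144 in vehicle tumours. Its values spread from 4.74 to 2383 within the navitoclax group and from 14.5 to 1235 within the combination group, so both groups reached above and below the whole vehicle range. Irgm1 differed from vehicle by 0.97 ± 0.88 with navitoclax and 1.05 ± 0.88 with the combination (adjusted p = 0.719 and 0.617), and Iigp1 by 0.77 ± 1.96 and 1.25 ± 1.96 (adjusted p = 0.875 and 0.824). Over the 7 genes the median was 0.03 in alisertib, 0.97 in navitoclax and 1.36 in combination tumours.

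The role groups differed in how combination 2 stood. In this library the median deviation was 1.93 for the guanylate-binding proteins and 2.41 for the immunity-related GTPases, but 0.43 for the ISG15 system, 0.42 for the antiviral effectors and 0.66 for the IFIT and OAS families and PKR. In navitoclax 3 the same medians were 2.86, 3.17, 2.38, 1.69 and 2.14. Isg15 shows the contrast at a single gene, with 415 normalised counts in navitoclax 3 and 74.1 in combination 2, against 68.0 to 73.9 in vehicle tumours. These are single libraries, so the difference between them has no replicate.

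**Figure D3:**
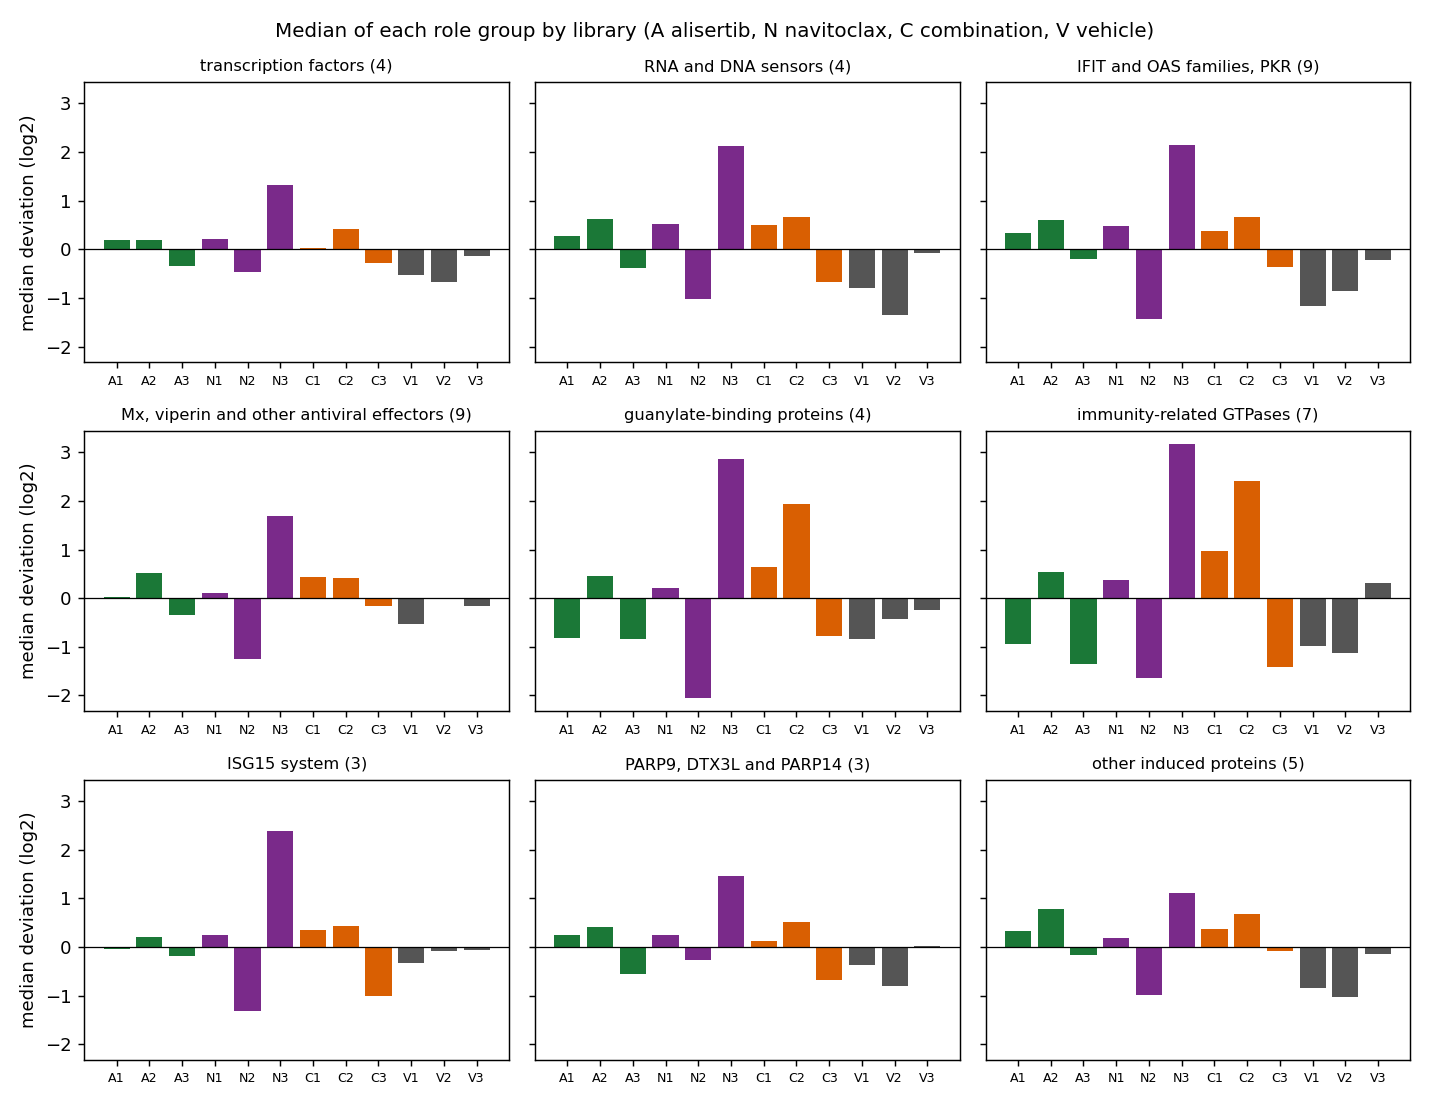
Median log2 deviation of each of the 9 role groups (number of genes in brackets) in the 12 libraries, as bars. Navitoclax 3 has the tallest bar in all 9 panels, and the bars of combination 2 are tallest in the guanylate-binding proteins (1.93) and immunity-related GTPases (2.41).

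ISG15 is a ubiquitin-like protein that is joined to other proteins after interferon exposure. Herc6, its main ligase in the mouse, had normalised counts of 249, 296 and 197 in alisertib tumours, 304, 288 and 593 in navitoclax tumours, 272, 346 and 127 in combination tumours, and 205, 154 and 285 in vehicle tumours. Every navitoclax library lay above every vehicle library, the closest pair being 287.8 and 285.1. Usp18, which removes ISG15 and blocks the type I receptor, had 102, 138 and 92.6 in alisertib tumours, 114, 15.02 and 749.8 in navitoclax tumours, 172, 152 and 86.9 in combination tumours, and 32.0, 129.9 and 101 in vehicle tumours. Its 3 navitoclax values ranged from 15.02 to 749.8, the lowest and the highest of all libraries, with a difference from vehicle of 0.56 ± 1.05 (adjusted p = 0.832). The 3 genes had a median difference of 0.23 in alisertib, 0.58 in navitoclax and 0.13 in combination tumours.

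PARP9 and the ubiquitin ligase DTX3L form a complex in the DNA damage and interferon responses, and PARP14 is a related ADP-ribosyltransferase. Dtx3l had normalised counts of 498, 504 and 311 in alisertib tumours, 445, 347 and 947 in navitoclax tumours, 454, 601 and 264 in combination tumours, and 322, 259.7 and 412 in vehicle tumours. Parp9 had 435, 462 and 236 in alisertib tumours, 436, 317 and 949 in navitoclax tumours, 358, 496 and 127 in combination tumours, and 289, 191 and 372 in vehicle tumours. Both genes were highest in navitoclax 3, and the treated and vehicle libraries overlapped in all 3 arms. The median of the 3 genes was 0.40 in alisertib, 0.83 in navitoclax and 0.35 in combination tumours.

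Of the 5 remaining members, Lgals3bp had normalised counts of 4353, 4318 and 3048 in alisertib tumours, 2015, 1977 and 6894 in navitoclax tumours, 4799, 4415 and 4303 in combination tumours, and 1959.9, 3063 and 3097 in vehicle tumours. All combination libraries lay above all vehicle libraries, at 0.76 ± 0.41 on the log2 scale (adjusted p = 0.381), and the navitoclax difference was 0.19 ± 0.41 (adjusted p = 0.855). Ifi35, a partner of NMI in immune signalling, had 306, 309 and 316 in alisertib tumours, 302, 202 and 592 in navitoclax tumours, 408, 416 and 300.4 in combination tumours, and 239, 296 and 263 in vehicle tumours. Its alisertib and combination libraries lay just above all vehicle libraries. Xaf1, a promoter of apoptosis that binds XIAP, had 249, 292 and 185 in alisertib tumours, 194, 79.9 and 486 in navitoclax tumours, 311, 299 and 76.0 in combination tumours, and 69.9, 68.6 and 168 in vehicle tumours. The alisertib libraries of Xaf1 lay above all vehicle libraries, with a difference of 1.33 ± 0.67 (adjusted p = 0.438). The group's median was 1.14 in alisertib, 1.06 in navitoclax and 0.76 in combination tumours.

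With alisertib, 43 of 48 members had a log2 difference above 0 relative to vehicle, against 51.1% of all tested genes, and the median was 0.50, against 0.01 over all tested genes. The libraries of the arms did not overlap in 8 members that were higher (10.7% of all tested genes) and in 1 that was lower (10.5%). The higher ones were Dhx58, Ifit1, Ifit3, Oas1a, Oas2, Trim30a, Xaf1 and Ifi35, and the lower one was Cmpk2, the mitochondrial nucleotide kinase beside Rsad2. The member with the lowest difference was Iigp1 at −0.78 and the highest was Ifi27l2a at 1.86. Without alisertib 2 the median was 0.23, with 35 members above 0 and 12 below.

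With navitoclax, all 48 members had a difference above 0, against 51.4% of all tested genes, and the median was 0.88, against 0.01. The libraries did not overlap in 2 members that were higher, Ifit2 and Herc6 (6.50% of all tested genes), and in 0 that were lower (8.64%). Differences ran from 0.04 for Oas1a to 2.04 for Ifi44. Without navitoclax 3, 23 members had a difference above 0 and 25 below, with a median of −0.04. Without navitoclax 2 the median was 1.85 and 31 members reached an unadjusted p under 0.05 (7.59% of all tested genes in the same fit), still with 0 past the adjusted threshold.

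**Figure D4:**
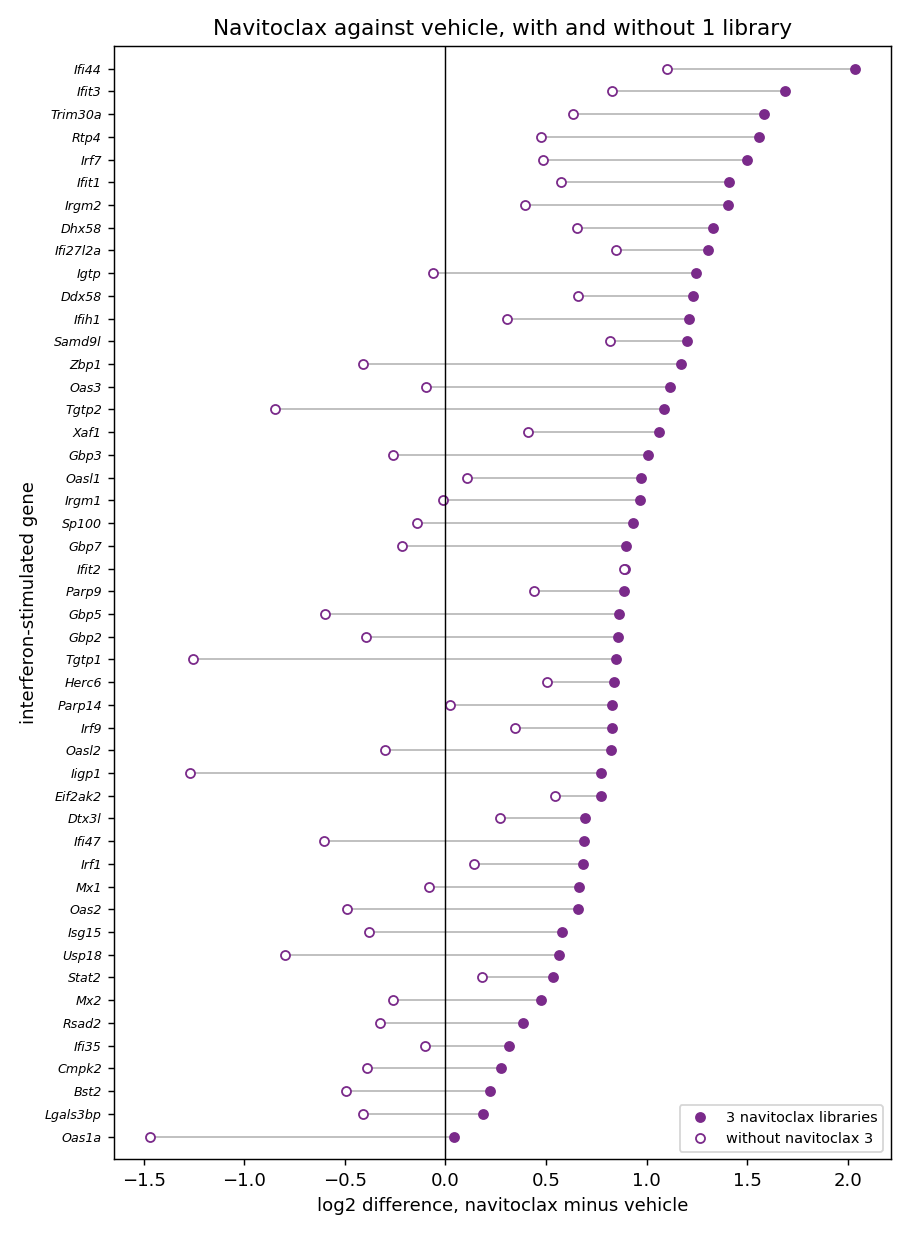
Log2 difference of navitoclax from vehicle for the 48 members, with all 3 navitoclax libraries (filled) and without navitoclax 3 (open), sorted by the filled value. All 48 filled points lie right of 0, and 25 open points lie left of it.

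With the combination, 45 members had a difference above 0 relative to vehicle, against 48.5% of all tested genes, and the median was 0.75, against −0.01. The libraries did not overlap in 9 members that were higher (9.73% of all tested genes) and in 0 that were lower (9.47%). The 9 were Stat2, Irf1, Ifit1, Oas1a, Oas2, Oas3, Gbp3, Ifi35 and Lgals3bp. Without combination 2 the median was 0.39 with 40 members above 0, and without combination 3 it was 1.29. The 3 drug arms share the vehicle libraries, so their values stand side by side and are not independent.

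Adding navitoclax to alisertib gave 28 members above 0 (48.8% of all tested genes) and a median of 0.13. Rsad2 and Cmpk2 were the 2 members whose combination libraries all lay above the alisertib ones (5.08% of all tested genes), and 0 lay below (5.20%). The sign of this median depended on single libraries. It was −0.14 with 22 members above 0 without alisertib 3, and −0.10 with 23 above 0 without combination 2. It was 0.38 without alisertib 2, 0.07 without combination 1, and 0.40 with 45 above 0 without combination 3.

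Adding alisertib to navitoclax gave 17 members above 0 (48.0%) and a median of −0.11. Ifit2 was the 1 member whose libraries did not overlap, lower in the combination (14.8% of all tested genes), and 0 were higher without overlap (14.2%). Without navitoclax 3 that median was 0.67, and without combination 3 it was 0.19 with 30 members above 0. It was −0.92 without navitoclax 2, −0.56 without combination 2 and −0.18 without combination 1. With edgeR the median was −0.52 and with DESeq2 −0.54, each with 3 members above 0, and with the ribosomal share as a covariate it was 0.21 with 33 above 0. The interaction was above 0 in 12 members (47.9% of all tested genes) with a median of −0.64, and the median ran from −1.42 without navitoclax 2 to 0.22 without navitoclax 3.

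Over 6 libraries against 6, alisertib given or not had 36 members above 0 (48.4%) and a median of 0.19, and navitoclax given or not had 48 (51.1%) and a median of 0.50. Leaving out navitoclax 3 moved them to 0.66 and 0.13, and leaving out navitoclax 2 to −0.21 and 1.04. Without combination 2 the median for alisertib given or not was 0.0013, with 24 members above 0, without alisertib 2 it was 0.06, and without combination 3 it was 0.50. By edgeR the median for alisertib given or not was −0.0068 to 0.0202 over 3 scalings, with 23 to 26 members above 0, and by DESeq2 it was −0.014 with 22. For navitoclax given or not the median was 0.92 by either tool.

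Upstream of the members, the ligands were barely detected. Of 21 interferon genes listed, 9 had a read in some library and 0 passed the filter. Ifnb1, which encodes interferon beta, had 7 reads in navitoclax 3, 1 in alisertib 2 and 0 in the other 10 libraries. Ifng had 4 reads in alisertib 2, 2 in combination 2, 1 in navitoclax 1, 1 in navitoclax 3 and 0 elsewhere. A count of 0 allows up to 3 reads, counting error only. The largest total, 39 reads, was that of Ifnz, with 11 of them in alisertib 3.

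Receptor transcripts were present throughout. The highest value was in navitoclax 3 for 0 of the 6 receptor genes, against 4.73% of all tested genes. With 6 genes this count cannot show a departure from that share. With alisertib, navitoclax and the combination, 6, 5 and 6 lay above 0, against 51.1%, 51.4% and 48.5% of all tested genes. The 6 summed to 5307 to 5533 in alisertib, 5068 to 5622 in navitoclax, 5435 to 5685 in combination and 4244 to 4389 in vehicle tumours. Ifngr2, a chain of the interferon gamma receptor, had normalised counts of 1363, 1505 and 1386 in alisertib tumours, 1008, 1005 and 1245 in navitoclax tumours, 1364, 1501 and 1484 in combination tumours, and 936, 823 and 908 in vehicle tumours. All drug-treated libraries lay above all vehicle libraries. Ifngr2 rose by 0.67 ± 0.13 with alisertib and by 0.70 ± 0.13 with the combination (log2 ± SE, limma adjusted p = 0.0348 and 0.0169), and differed by 0.28 ± 0.13 with navitoclax (adjusted p = 0.704). It was the 1 of 6 receptor genes past the threshold in each of the first 2 comparisons, and 0 of 6 passed with navitoclax. Il10rb, the chain shared by the lambda interferon and interleukin-10 receptors, differed from vehicle by 0.80 ± 0.24 in alisertib, 0.88 ± 0.24 in navitoclax and 0.70 ± 0.24 in combination tumours, with adjusted p = 0.188, 0.569 and 0.157.

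Among the kinases Jak1, Jak2 and Tyk2, which relay the signal from the receptors, 0 of 3 passed in any drug arm. Over all tested genes 0.871%, 0.0647% and 2.54% passed with alisertib, navitoclax and the combination. Of 13 tested genes of the cGAS, STING and adaptor list, 0 passed in each arm. Of the 13, 2 had their highest value in navitoclax 3, against 4.73% of all tested genes. Of 11 genes listed as brakes, 4 were highest in navitoclax 3, beside the same 4.73% of all tested genes. Among the 4 was Socs1 at 152 normalised counts, against 22.1 to 130.3 in the other libraries. The 1 gene of that list past the threshold was Isg20, lower in the combination. Isg20 encodes an RNA exonuclease and so is an effector rather than a brake. It had 138, 193 and 61.8 in alisertib tumours, 100.1, 74.3 and 127 in navitoclax tumours, 97.1, 54.5 and 39.8 in combination tumours, and 367, 255 and 419 in vehicle tumours. The vehicle values lay above all treated values, and Isg20 fell by 2.47 ± 0.44 with the combination (adjusted p = 0.0156), with differences of −1.51 ± 0.44 for alisertib and −1.77 ± 0.44 for navitoclax (adjusted p = 0.168 and 0.450). Of 51 tested genes on a list of other interferon-induced genes, 0 passed in each arm. With alisertib, navitoclax and the combination, 39, 47 and 46 lay above 0, against 51.1%, 51.4% and 48.5% of all tested genes. Of the 51, 40 had their highest value in navitoclax 3, against 4.73% of all tested genes.

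Markers of lymphocytes were low, and the T cell and NK cell sums were highest in navitoclax 3 and combination 2. The 10 T cell markers summed to 163 normalised counts in navitoclax 3 and 162 in combination 2, and to between 29.8 and 93.4 in the other libraries. Their sums were 29.8 to 75.7 in alisertib, 47.4 to 163 in navitoclax, 38.8 to 162 in combination and 65.3 to 76.0 in vehicle tumours. None was at 0 in alisertib 2, navitoclax 1, navitoclax 3 or combination 2, while 7 of 10 were at 0 in navitoclax 2, Cd3d, Cd3e, Cd3g and Cd8a among them. Cd8a, a marker of cytotoxic T cells, had 1.70, 3.82 and 1.87 in alisertib tumours, 4.96, 0 and 23.8 in navitoclax tumours, 3.70, 30.7 and 7.24 in combination tumours, and 5.99, 0 and 2.65 in vehicle tumours. Lck, a kinase of the T cell receptor, was the largest part of the vehicle sums and of every other sum but that of combination 2. The ranges of the sums by group thus depend on Lck. It had 15.3, 21.4 and 21.5 in alisertib tumours, 48.0, 40.3 and 57.1 in navitoclax tumours, 19.4, 34.1 and 21.7 in combination tumours, and 49.9, 53.9 and 44.1 in vehicle tumours. Its combination and alisertib libraries lay below every vehicle library, at −1.27 ± 0.29 with alisertib and −0.96 ± 0.29 with the combination (log2 ± SE, limma adjusted p = 0.0813 and 0.110). Cd4, the other T cell marker tested, went the other way, at 1.07 ± 0.56 with alisertib and 1.33 ± 0.56 with the combination (adjusted p = 0.448 and 0.251).

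The 8 NK cell markers summed to 67.4 in navitoclax 3 and 51.1 in combination 2 and to between 3.16 and 19.4 elsewhere. The ranges were 4.68 to 17.6 in alisertib, 3.16 to 67.4 in navitoclax, 14.5 to 51.1 in combination and 6.18 to 7.35 in vehicle tumours. Prf1 was the largest part of the sum in navitoclax 3 (21.4) and in combination 2 (27.2). In combination 3 Prf1 was the whole sum of 14.5, with 7 of 8 markers at 0. Ncr1, a defining NK marker, had a value above 0 in alisertib 2, navitoclax 3, combination 1 and combination 2, at 3.97 or less. Few of these markers passed the filter, 2 of 10 and 1 of 8, and 0 passed the threshold in any arm. The 6 B cell markers summed to 8.42 to 12.2 in alisertib, 7.12 to 25.4 in navitoclax, 15.3 to 18.1 in combination and 4.90 to 7.99 in vehicle tumours. Their sum was highest in navitoclax 3 (25.4), as were most members. The order below it differed, with navitoclax 1 (19.8) and combination 3 (18.1) above combination 2 (15.3). Pax5 made up 14.5 of the sum in combination 3, where 1 read equals 3.62. The part of lymphocytes in the members' values was not tested.

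The sum of the macrophage markers followed another order than the members. The 13 markers summed to 5380.4 to 12737 in alisertib, 3406 to 7634 in navitoclax, 7673 to 15757 in combination and 1511 to 3487 in vehicle tumours, and combination 3, with members below their mean, had the highest sum. The largest parts of that sum were Lyz2 (4368) and C1qc (3963). Single markers differed. C1qa, C1qb and C1qc were highest in combination 3, while Cd68 had 221 there and 678 and 908 in combination 1 and 2. Itgam and Ccr2 were lowest of all libraries in combination 3, at 7.24, where 3 reads equal 10.9. Of 12 tested, Lyz2 rose by 2.12 ± 0.37 with alisertib (adjusted p = 0.0236), Lyz2 and Ms4a7 rose by 2.66 ± 0.37 and 2.49 ± 0.51 with the combination (adjusted p = 0.00387 and 0.0322), and 0 passed with navitoclax. The 6 markers of plasmacytoid dendritic cells, a main source of type I interferon, summed to 2254 to 2610.2 in alisertib, 2454 to 3549 in navitoclax, 1524 to 2531 in combination and 2036 to 2994 in vehicle tumours, with the highest sum in navitoclax 2. Nearly all of that sum was Tcf4, at 3536 in navitoclax 2. The other markers were low and had different orders: Siglech was highest in navitoclax 3 (5.55) and at 0 in 7 libraries, Ccr9 was highest in vehicle 2 (4.90), and Cox6a2 was highest in navitoclax 1 (122). Navitoclax 1 also had the highest sum of 8 skeletal muscle markers, 92646 against 53.6 to 825 in the other libraries. The part of macrophages, plasmacytoid dendritic cells and muscle in the members' values was not tested.

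**Figure D5:**
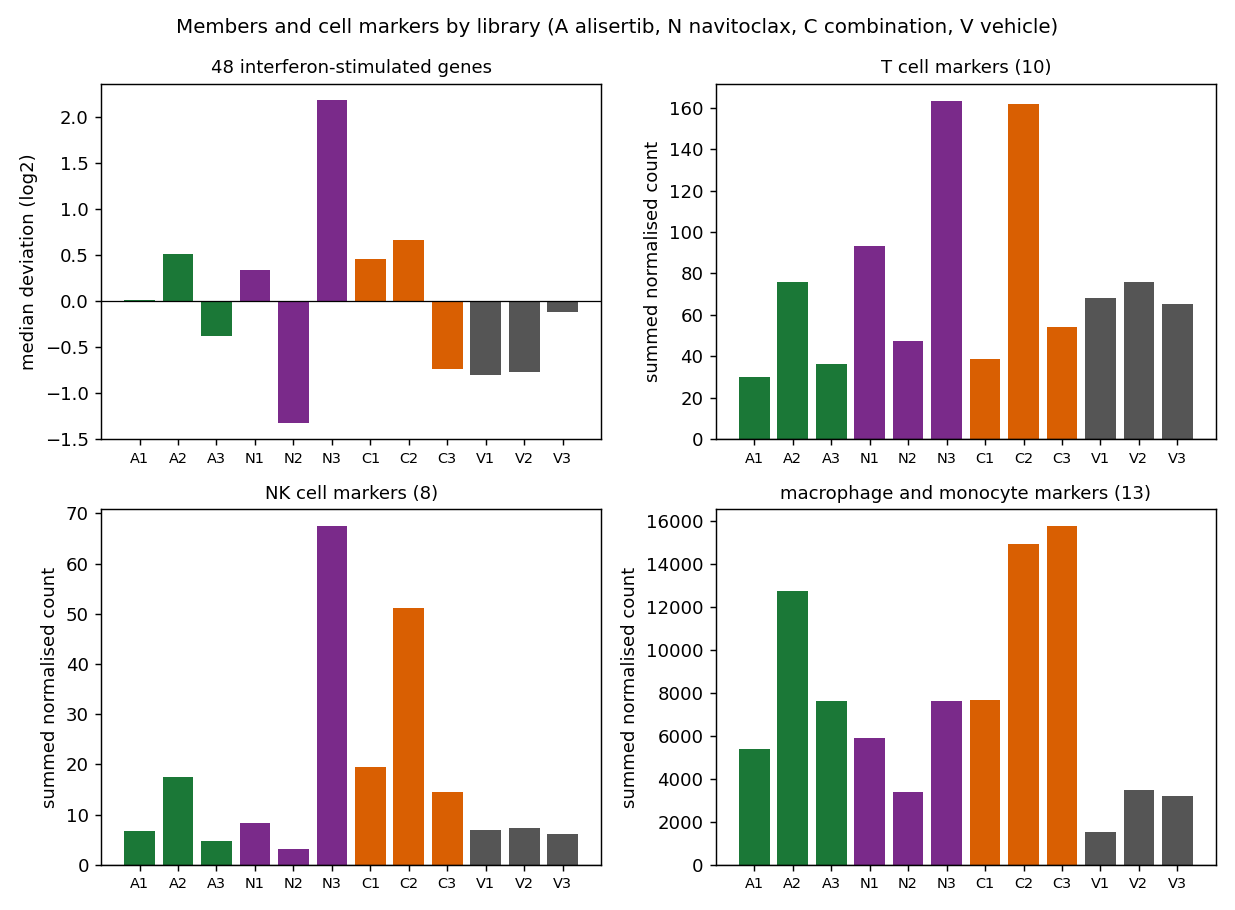
Bars by library for the members' median log2 deviation (top left) and for the summed normalised counts of T cell, NK cell and macrophage markers (number of markers in brackets). T cell and NK cell sums are highest in navitoclax 3 and combination 2, and the macrophage sum is highest in combination 3.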

How the data were processed

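Total RNA of 12 tumours was depleted of ribosomal RNA and made into directional libraries, per the labels' protocols. The authors deposited a normalised signal per gene and library, gene counts divided by a size factor per library. In every library 100% of values were whole multiples of a step within 0.001, so whole reads were recovered for the count models. DESeq2, featureCounts, Subread 1.5.1 and HISAT2 2.0.6 appear in the submitters' processing notes without a stated role, as do the builds mm10 and GRCm38.p4. Annotation release and strand setting are not given in the sources used here.

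Groups came from the labelled treatment. Replicate numbers follow accession order, since the labels hold none, and p-values reflect no more than the spread between libraries. In a linear model with group means, limma 3.58.1 in R 4.3.3 was applied to log2(value + 2) of 16993 genes with at least 10 normalised counts in at least 3 of the 12 libraries, with trended, robust moderation and Benjamini-Hochberg adjustment over all genes tested. Differences on this scale understate the change of low genes. The ± beside a difference is its standard error, and the interval is the 95% interval. The script was tested on simulated data. Alternatives were edgeR 4.0.16, DESeq2 1.42.0 and voom on recovered reads, other size factors, filters and pseudocounts, and libraries left out.

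The members and lists were chosen with earlier results of these data known, so their counts and medians carry no test. Values in every library are given for the 2 members with the highest mean in each role group and the 3 with the smallest p in each arm against vehicle, 24 in all. Any other member is named because a count or an extreme singled it out after its values were seen. Gene positions came from GENCODE M21, promoter sequences from RefSeq (GRCm38.p6). Some listed genes are not reported here.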

Additional observations from a re-analysis of the deposited data

Results flagged for a closer look

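For the named members, the 6 libraries that received a drug and the 6 that did not were examined for a library far from the others, by the gap to its nearest neighbour as a share of the whole range on the log2(normalised count + 2) scale. Of 96 such gaps, 10 passed Dixon's 95% critical value. Chance passes about 1 group in 20, or 4.8 of 96. The gaps are not independent, since the sets share libraries and many members were extreme in the same libraries. The 2 numbers are therefore no test of an excess. Navitoclax 3 stood above the libraries without alisertib for Irf1 (1936 normalised counts, gap 0.774), Lgals3bp (6894, gap 0.636) and Ifi35 (592, gap 0.628). Combination 2 stood above the libraries given alisertib for Irf1 (1551, gap 0.638). Combination 3 stood below the libraries given alisertib for Ifit2 (217, gap 0.815) and Xaf1 (76.0, gap 0.631), and below those given navitoclax for Ifit2 (gap 0.654). Alisertib 3 stood below the libraries given alisertib for Lgals3bp (3048, gap 0.759). Among libraries without navitoclax, vehicle 2 stood low for Ifit2 (338, gap 0.748) and vehicle 1 for Usp18 (32.0, gap 0.725). Combination 3 and vehicle 2 are the libraries with the ribosomal shares of 73.7% and 63.3%, whose part in these values was not tested.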

How the results depend on the processing

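In each drug arm against vehicle, 0 members passed the adjusted threshold under all 26 alternatives, and the smallest adjusted p of any member was 0.111 with alisertib (voom with quality weights), 0.162 with navitoclax (DESeq2) and 0.0733 with the combination (ribosomal share as a covariate). Between these alternatives the number of all tested genes past the threshold ran from 49 to 1289, 0 to 87 and 58 to 2561, so the members' count of 0 stands beside very different backgrounds. In the combination against navitoclax, 1 member passed with voom (Ifit2 at −0.69, adjusted p = 0.0271), where 9.7% of all tested genes passed, and 1 without vehicle 2 and combination 3 (Ifit2 at −0.58, adjusted p = 0.0492), where 2.15% did, against 0.203 as reported. For alisertib given or not, the members past the threshold numbered 0 to 2 when each library was left out: without navitoclax 3 they were Oas1a (1.84, adjusted p = 0.0320) and Lgals3bp (0.86, adjusted p = 0.0181), beside 3.43% of all tested genes. Without vehicle 2 and combination 3, 1 passed (Ifit2 at −0.34, adjusted p = 0.0435), beside 8.92%. The median of the members with navitoclax against vehicle ran from −0.06 (without navitoclax 3, 47 members tested) to 1.85 (without navitoclax 2), and edgeR, which models counts, gave 1.64. When each library was left out, log2 differences of navitoclax from vehicle changed sign for Bst2 (−0.49 to 0.65), Gbp2 (−0.40 to 1.94), Irgm1 (−0.014 to 1.81), Iigp1 (−1.27 to 2.96), Usp18 (−0.80 to 1.94) and Lgals3bp (−0.41 to 0.49), with the lowest value without navitoclax 3 in each case, and for Bst2, Usp18 and Lgals3bp also, to between −0.03 and 0.00, without vehicle 1. Iigp1, navitoclax against vehicle, was −0.23 with the ribosomal share as a covariate. Iigp1 with the combination ran from −0.091 (without combination 2) to 3.02 (without combination 3). The cause of these changes was not tested. The other members' differences given above with a standard error kept their sign under every alternative run. Oas1a, given above without one, went from 0.04 with navitoclax against vehicle to −1.47 without navitoclax 3. The median of all tested genes moved by at most 0.0559 on the log2 scale. No paired analysis was possible because the labels give the libraries no replicate numbers that could pair them. Genes near 0 in a library, such as Gbp5 and Ifi44, are limited by depth most in combination 3, where 3 reads equal 10.9 normalised counts.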

Other observations

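Beyond the members, 44 of the 16993 tested genes had a value of normalised count + 2 in navitoclax 3 at least 2-fold above that of the next-highest library, a rule chosen after the data had been seen. Of these, 23 were members (47.9% of the members) and 9 were on the list of other interferon-induced genes. The same count was 133 in navitoclax 1, 172 in combination 3, 64 in vehicle 2 and 18 or fewer in the other libraries. Navitoclax 1 had the highest sum of skeletal muscle markers (92646). Combination 3 and vehicle 2 had the fewest reads left for other genes, 7.08 M and 9.86 M. The part of muscle and depth in these counts was not tested. Apol9b and Apol9a, mouse apolipoprotein L genes, led the 44. Apol9b had 983 normalised counts in navitoclax 3 and 123 in the next-highest library, and Apol9a had 858 and 123. Members followed, with Usp18 at 750 and 172, Isg15 at 415 and 99.8 and Rtp4, a chaperone of membrane receptors, at 358 and 86.0. Batf2, a transcription factor of activated macrophages, had 351 and 118, and Cxcl9, a chemokine that draws T cells, had 340.4 and 117.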
